A study of Homo sapiens with 18 samples.

Results

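The genes described here are 50 genes of mitosis and of the G2/M phase, taken by name from a fixed list. That list was drawn up with earlier results of these data known. Its genes are 50 of the 27086 genes to which the deposited transcript estimates were summed. All 50 had enough counts to be tested in both experiments, in which 13715 and 13604 genes were tested. The cells were 786-O, a long-established line of human clear-cell kidney cancer without a working VHL protein. They carried short hairpin RNAs against USP13, a deubiquitinating enzyme, or against ZHX2, a zinc-finger and homeobox transcription factor that the series title names as a target of USP13.

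Cells enter mitosis when cyclin B binds and activates the kinase CDK1, and they leave it when the anaphase-promoting complex (APC) marks cyclin B and securin for degradation. Most of the genes that drive this transition are transcribed late in the cell cycle, through MuvB complexes with B-MYB and FOXM1 that act at promoter elements named CHR (cell cycle genes homology region) and at CCAAT boxes bound by NF-Y. Their summed mRNA in a culture therefore follows how many of its cells are in G2 and M, so that in bulk RNA a smaller share of such cells and less RNA per cell cannot be told apart.

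USP13 was targeted by hairpin sh50 or sh52 and ZHX2 by hairpin sh43 or sh45, each experiment with control-hairpin libraries of its own (shCtrl), and each of the 6 groups held 3 libraries. All groups share the 786-O background, and the time after transduction is not given in the sources used here. Replicates are labelled as triplicates with no word on separate cultures, so the p-values take in no more than the variation among the libraries, and this variation may be technical. Values are counts scaled to library size with TMM factors (CPM) in the order of replicates 1 to 3 unless a mean ± SD (n = 3) is given. A gene is said to have risen or fallen when its edgeR quasi-likelihood test, adjusted over all genes tested, gave p under 0.05.

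The labels' treatment text lists hairpins 43 and 45 under USP13, whereas titles and characteristics place them under ZHX2, so the targets were read first. ZHX2 was at 343 ± 2.18 CPM in its controls, 40.2 ± 2.74 under sh43 and 84.2 ± 5.87 under sh45. USP13 was at 34.5 ± 2.57 CPM in its controls, 18.1 ± 2.03 under sh50 and 16.9 ± 1.81 under sh52. Under sh43 and sh45 USP13 was at 35.2 ± 3.56 and 46.5 ± 3.15 CPM against 41.3 ± 3.01 in the ZHX2 controls. Relative to these controls, ZHX2 was by far the more reduced of the targets in those libraries. USP13 fell slightly under sh43 (-0.23, adjusted p = 0.016), a call lost without ZHX2 control replicate 3 or sh43 replicate 1 (adjusted p = 0.099 and 0.13). ZHX2 fell slightly under sh50 (-0.20, adjusted p = 0.0086). Its difference under sh52 was -0.17 (adjusted p = 0.047), a call lost without any 1 of the 9 libraries (adjusted p from 0.052 to 0.15). Total estimated counts per library ran from 11192561 to 16511290. The renal markers PAX8, PAX2, KRT8, KRT18, VIM, CDH2 and EPAS1 were present in every library, while PTPRC, CD3E, PECAM1 and CDH5 were too low to be tested and ALB stayed under 2 CPM. The share of counts from mitochondrial rRNA moved with the hairpins, from 2.54 to 2.697% in the USP13 controls, 4.109 to 4.425% under sh50 and 3.539 to 3.796% under sh52. It was 1.179 to 1.323% in the ZHX2 controls, 1.509 to 1.567% under sh43 and 2.827 to 3.347% under sh45, and its part in the results below was not tested.

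Late cell cycle promoters are recognised by short elements, and RefSeq promoter windows (GRCh38.p14, 250 bases before to 50 after the annotated start) were found for 42 of the 50 genes, in 56 windows. AURKA, BIRC5, BUB3, FOXM1, RACGAP1, TPX2, TTK and UBE2C had no entry. A CHR-like element, TTTGAA or TTCGAA on either strand, was present in 37 of the 56 windows (66.1%), against 16.4% of all 35116 windows in the table. A CCAAT box on either strand was present in 38 windows (67.9%), against 34.6% of all windows, and both kinds occurred together in 28 of the 56 windows, against 6.4% of all windows. A match of letters is a description and not a bound site. The 150 bases before the start are shown for 5 genes on which the results turn, all on the plus strand, with CHR-like elements (TTTGAA, or TTCAAA on the other strand) and CCAAT boxes (CCAAT, or ATTGG on the other strand) in capitals, and with matches that overlap each counted.
HMMR, chr5:163460482-163460631: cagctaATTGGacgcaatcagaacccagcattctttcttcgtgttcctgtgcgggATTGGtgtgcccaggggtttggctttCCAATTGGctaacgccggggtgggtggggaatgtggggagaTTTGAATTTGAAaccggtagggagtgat
CCNB2, chr15:59104996-59105145: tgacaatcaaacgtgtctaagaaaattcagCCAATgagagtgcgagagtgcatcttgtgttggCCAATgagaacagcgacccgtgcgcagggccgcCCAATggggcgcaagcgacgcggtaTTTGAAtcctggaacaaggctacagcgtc
CDC20, chr1:43358831-43358980: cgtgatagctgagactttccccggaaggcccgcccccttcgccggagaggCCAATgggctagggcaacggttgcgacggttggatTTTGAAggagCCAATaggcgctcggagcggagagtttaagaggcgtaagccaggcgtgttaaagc
PLK1, chr16:23678739-23678888: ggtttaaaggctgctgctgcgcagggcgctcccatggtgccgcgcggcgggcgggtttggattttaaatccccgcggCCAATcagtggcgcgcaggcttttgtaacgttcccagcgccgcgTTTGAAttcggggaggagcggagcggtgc
PTTG1, chr5:160421705-160421854: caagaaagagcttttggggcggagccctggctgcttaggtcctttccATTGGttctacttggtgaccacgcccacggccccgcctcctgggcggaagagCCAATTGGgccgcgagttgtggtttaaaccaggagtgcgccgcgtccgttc
HMMR holds 2 CHR-like elements end to end and 4 CCAAT boxes in this stretch, of which the last pair overlap, CCNB2 holds 1 and 3, CDC20 1 and 2, and PLK1 1 and 1. PTTG1 holds 3 CCAAT boxes, of which the last pair overlap, and no CHR-like element in it. The 34 genes with a CHR-like element in a window had a median log2 change of 0.38 under sh43 and of -0.14 under sh52 against control, and the 8 with a window and none had 0.40 and -0.16. Between sh45 and sh43 the medians were -0.16 and 0.09.

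Levels are compared between genes only per transcript length, as TPM, an abundance scaled for transcript length and depth. In the USP13 controls the most abundant of the 50 was UBE2C, the ubiquitin-conjugating enzyme of the APC, at 178 ± 14.3 TPM, and the lowest was PLK4, the kinase of centriole duplication, at 3.38 ± 0.311 TPM. In the ZHX2 controls UBE2C was again the highest, at 324 ± 7.72 TPM, and CENPE, the kinetochore motor, was the lowest, at 5.72 ± 0.718 TPM. The 2 sets of controls did not overlap for any of the 50 genes: every gene was higher in the ZHX2 controls, by ratios of TPM from 1.24 (BUB3) to 3.22 (SPC25), with a median of 1.87. Over the 13182 genes tested in both experiments 29.7% were likewise wholly higher in the ZHX2 controls and 30.2% wholly lower, with a median ratio of 0.99. The TPM of a gene depends on how its reads were divided over isoforms of different length. The experiment and the batch in which its libraries were made cannot be told apart, so each hairpin was compared only with its own controls.

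Under ZHX2 knockdown most of the 50 genes rose. With sh43, 40 of the 50 rose and 1 fell, where 68.8% of all genes tested were called (33.5% higher and 35.2% lower), and the median log2 change of the 50 was 0.45 against -0.02 over all genes tested. With sh45, 34 rose and 1 fell, where 52.5% of all genes were called (25.3% higher and 27.3% lower), with medians of 0.26 and -0.01. Both comparisons share the 3 control libraries. 27 genes rose under both hairpins, 12 passed the test under sh43 with a sh45 test that missed the threshold, and for 6 it was the reverse. The share of all genes that rose under both hairpins is not given here. KIF11, KIF20A and NUSAP1 were called under neither hairpin, and HMMR and SMC2 were called in opposite directions. The single gene lower under sh45, SMC2, had an adjusted p of 0.046, and the count of lower genes was 0 without ZHX2 control replicate 1 or 3, without any of the sh43 replicates, or without sh45 replicate 2 or 3. The count of genes lower under sh43 was 2 without sh43 replicate 2.

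Under USP13 knockdown the 2 hairpins gave different counts. With sh50, 12 of the 50 rose and 1 fell, where 21.5% of all genes tested were called (10.2% higher and 11.3% lower), with a median of 0.18 for the 50 against 0.00 for all genes. With sh52, none rose and 8 fell, where 5.45% of all genes rose and 6.56% fell, and the median was -0.15 against -0.00. No member was higher under sh52 at an unadjusted p under 0.05 or by DESeq2 either, and 22 were lower at that unadjusted p. DESeq2 called 728 of the 13715 genes tested higher under sh52. The shares of all genes at that unadjusted p are not given here. HMMR was the single gene of the 50 called under both hairpins, and the share of all genes called under both is not given here. The direct comparison of the hairpins, sh52 against sh50, gave 27 genes lower and none higher, where 4.74% of all genes were lower and 5.48% higher, with a median of -0.31 against -0.00. DESeq2 called 25 of the 50 lower and 0 higher, where it called 628 of the 13715 genes tested lower and 759 higher. At an unadjusted p under 0.05 there were 40 members lower and 0 higher in edgeR, again with no share of all genes beside them.

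These USP13 counts changed when single libraries were left out, in fits that have fewer samples. The counts over all genes in those fits are not given here. The median of the 50 for sh52 against sh50 stayed between -0.34 (without sh50 replicate 1) and -0.27 (without sh50 replicate 3). USP13 control replicate 2 stood above the mean of the 3 controls for all 50 genes (median log2 difference 0.14, 2340 CPM summed over the 50 genes), while replicates 1 and 3 held 2040 and 1991 CPM. Without that library 15 genes rose under sh50 and 5 fell under sh52, with medians of 0.26 and -0.07. The 12 genes that rose under sh50 became 5 without control replicate 3, 6 without control replicate 1 or sh50 replicate 2, and 7 without sh50 replicate 3. The 27 genes lower under sh52 than under sh50 became 13 without sh50 replicate 2 or sh52 replicate 2, and 17 without sh50 replicate 3 or sh52 replicate 3. Library sh52 replicate 1 also stood apart from the other 8 on the second principal component (-35.71, the others between -7.00 and 12.27) and held 15490 genes with a count. Without it, 10 genes fell under sh52 and 21 were lower than under sh50. Kept without each of the 9 libraries in turn were 5 rises under sh50 (CCNA2, NUSAP1, PRC1, SPC25 and UBE2C) and 5 falls under sh52 (BUB3, CCNB2, CDC20, HMMR and TOP2A). The same held for 10 differences between the hairpins.

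**Figure D1:**
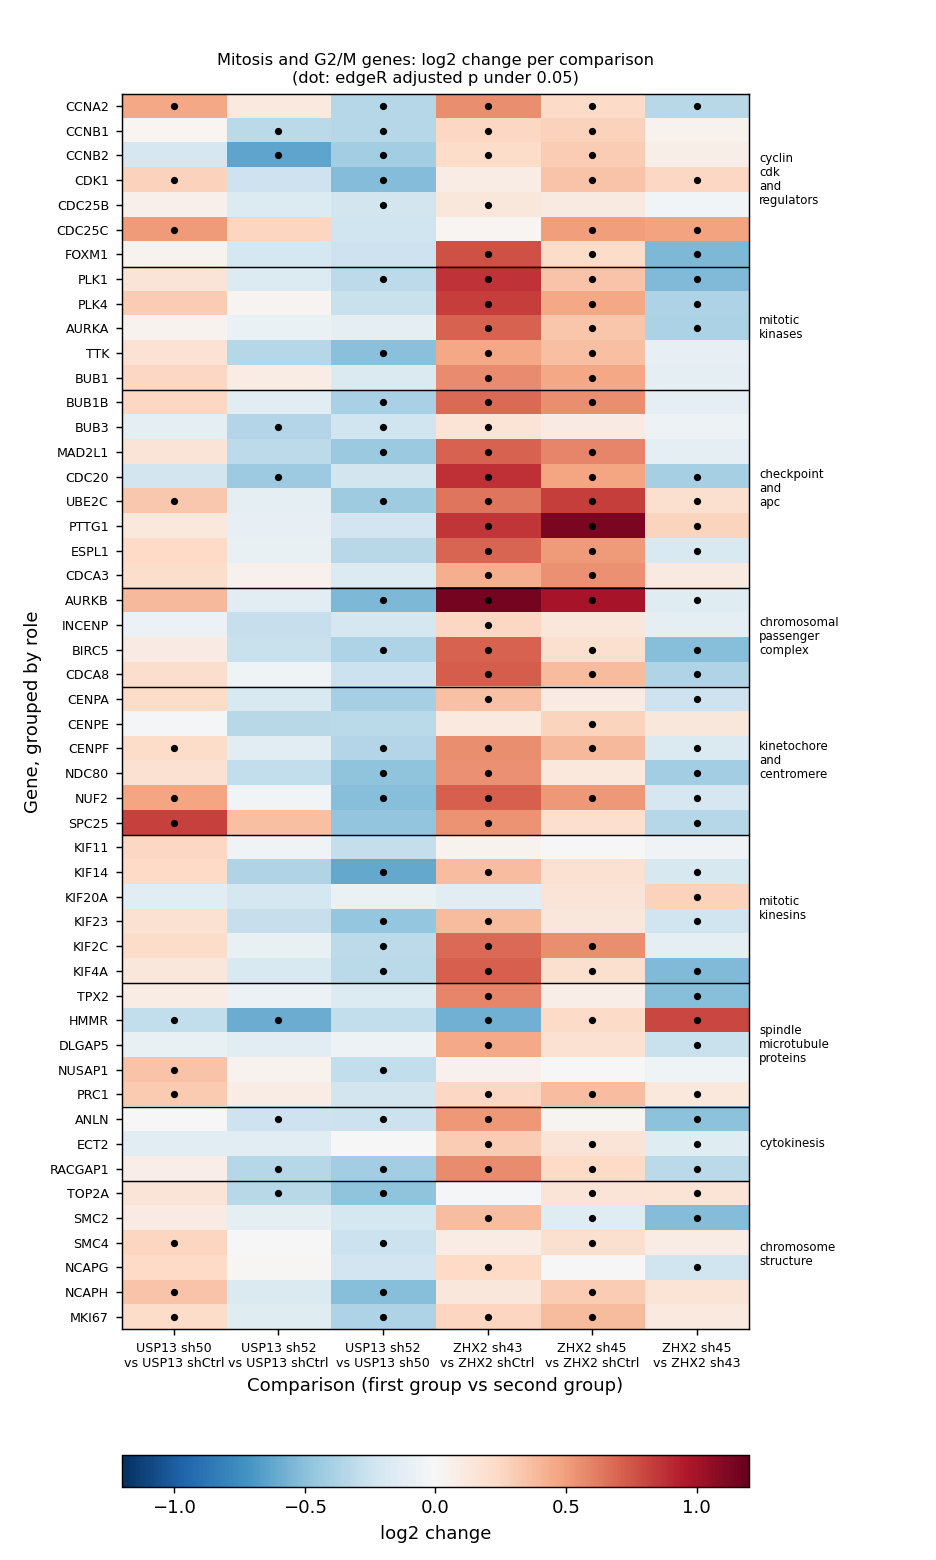
Log2 change of the 50 genes (rows, grouped by role) in the 6 comparisons (columns), from blue (lower in the group named first) to red (higher), with a dot where the edgeR adjusted p was under 0.05. The sh43 and sh45 columns against control are mostly red, with 40 and 34 genes higher, and the sh52 against sh50 column holds 27 genes lower and none higher.

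**Figure D2:**
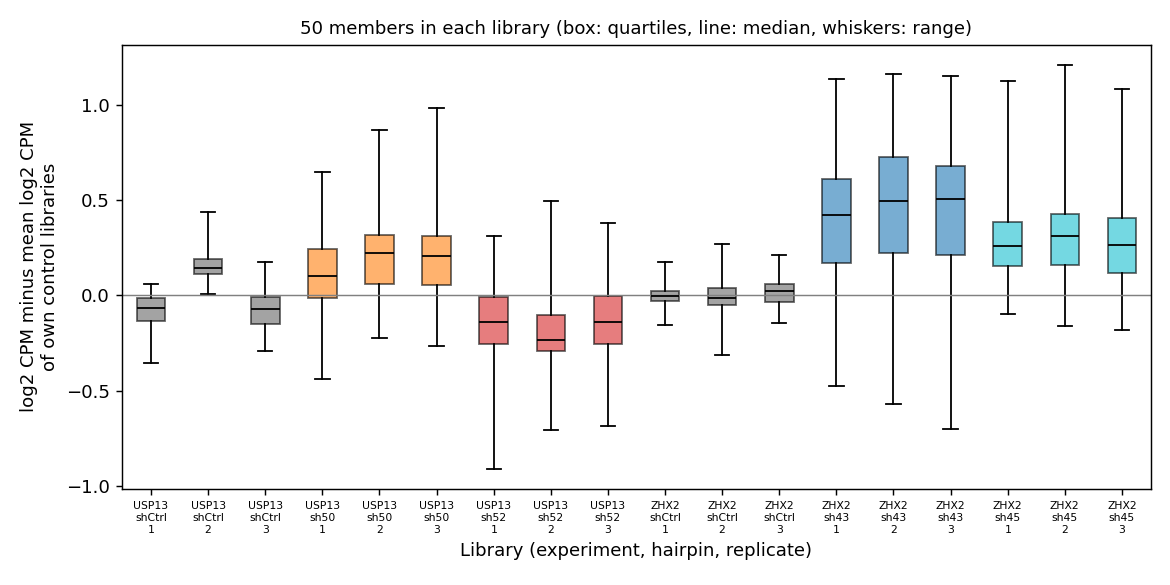
Log2 CPM of the 50 genes in each library minus the mean log2 CPM of that experiment's own 3 controls (box, quartiles; line, median; whiskers, range). Medians were 0.10, 0.22 and 0.21 in the sh50 libraries, -0.14, -0.23 and -0.14 in the sh52 libraries, 0.42, 0.50 and 0.51 under sh43 and 0.26, 0.31 and 0.26 under sh45, and USP13 control replicate 2 stood at 0.14.

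The median of the 50 genes in each sh43 library (0.42, 0.50 and 0.51) lay above that of each sh45 library (0.26, 0.31 and 0.26), and all 6 lay above the 3 ZHX2 controls (-0.01 to 0.02). In the USP13 experiment the sh52 medians lay below all 3 controls, whereas sh50 replicate 1, at 0.10, lay below control replicate 2, at 0.14.

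Among the cyclins, CDK1 and their regulators (7 genes), 3 rose under sh50, 2 fell under sh52, 5 rose under sh43 and 6 rose under sh45. Of all genes tested, 10.2% rose under sh50, 6.56% fell under sh52, and 33.5% and 25.3% rose under sh43 and sh45. CCNB2, a B-type cyclin that activates CDK1, was at 23.7, 29.6 and 26.7 CPM in the USP13 controls, 23.2, 24.4 and 22.1 under sh50 and 15.3, 16.6 and 20 under sh52. All 3 sh52 libraries lay below all controls, and the fall was -0.63 (SE 0.11, adjusted p = 0.00044), the largest of the falls called under sh52. In the ZHX2 experiment CCNB2 was at 52.9, 55.6 and 61.2 CPM in controls, 60.9, 67.0 and 70.7 under sh43 and 67.6, 70.2 and 71.2 under sh45. It rose by 0.22 and 0.30 (adjusted p = 0.0052 and 0.00061), although sh43 replicate 1 lay just under control replicate 3.

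CCNB1, the main mitotic cyclin, was at 42.1 ± 4.43 CPM in the USP13 controls and 33.7 ± 3.34 under sh52, a fall of -0.32 (adjusted p = 0.020) that was lost without control replicate 1 or 2 or sh52 replicate 1 or 2 (adjusted p from 0.054 to 0.14). Under sh50 its log2 difference was 0.02 (adjusted p = 0.92). It rose by 0.25 under sh43 and 0.28 under sh45 (adjusted p = 0.0009 and 0.00036). CDK1, the kinase that these cyclins activate, was at 39.4, 45.0 and 40.0 CPM in the USP13 controls, 50.9, 53.8 and 46.5 under sh50 and 37.6, 34.2 and 33.2 under sh52. The 3 groups did not overlap, with sh50 above and sh52 below the controls. Its difference between hairpins was -0.52 (SE 0.09, adjusted p = 0.00018), whereas its rise under sh50 (0.28, adjusted p = 0.020) was lost without control replicate 1 or 3 or sh50 replicate 1 or 2 (adjusted p from 0.058 to 0.12). In the ZHX2 experiment CDK1 rose under sh45 (0.34, adjusted p = 3.5e-05) and not past the threshold under sh43 (0.09, adjusted p = 0.18), and sh45 exceeded sh43 by 0.25 (adjusted p = 0.00079).

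CCNA2, the cyclin of S and G2, was at 20.8, 25.8 and 23.2 CPM in the USP13 controls, 30.0, 32.5 and 33.5 under sh50 and 25.7, 23.3 and 26.8 under sh52. Every sh50 library lay above every control and every sh52 library, and the rise was 0.46 (SE 0.10, adjusted p = 0.0013). It rose by 0.56 under sh43 and by 0.23 under sh45 (adjusted p = 1.4e-08 and 0.0041). CDC25C, a phosphatase that activates CDK1 at entry to mitosis, rose under sh45 from 11.4 ± 1.09 to 16.0 ± 1.55 CPM (0.50, adjusted p = 0.0018) and stood at 11.6 ± 1.96 CPM under sh43. Its rise under sh50 (0.51, adjusted p = 0.036) was lost without any control replicate, without sh50 replicate 2 or 3, and with DESeq2 (adjusted p from 0.054 to 0.18), and lay at the threshold (0.05) with the replicate block. CDC25B, a phosphatase of the same family, rose under sh43 only slightly (0.14, adjusted p = 0.018), a call lost without sh43 replicate 2 or ZHX2 control replicate 3 and with upper-quartile factors (adjusted p = 0.057, 0.068 and 0.11).

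FOXM1, the transcription factor that activates many of the other 49 genes late in the cycle, was at 84.4, 92.2 and 93.5 CPM in the ZHX2 controls, 148.2, 163.0 and 147.1 under sh43 and 100.2, 109.3 and 105.9 under sh45. The 3 groups did not overlap, and it rose by 0.76 under sh43 (SE 0.06, adjusted p = 1.2e-11) and by 0.22 under sh45 (SE 0.06, adjusted p = 0.0030). The difference between hairpins, -0.54, had an adjusted p of 8.3e-09. FOXM1 had log2 differences in the USP13 libraries of 0.04 under sh50 and -0.21 under sh52 (adjusted p = 0.81 and 0.16).

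All 5 mitotic kinases rose under both ZHX2 hairpins, where 33.5% and 25.3% of all genes tested rose under sh43 and sh45. Against control, edgeR called none of the 5 under either USP13 hairpin. Of all genes tested, 10.2% rose and 11.3% fell under sh50, and 5.45% and 6.56% under sh52, so 0 of 5 says little. At an unadjusted p under 0.05, 2 kinases were higher under sh50 and 2 lower under sh52, with no share of all genes beside them. DESeq2 called 0 of the 5. PLK1, which acts in centrosome maturation, spindle assembly and cytokinesis, was at 102.0, 108.0 and 102.8 CPM in the ZHX2 controls, 183.6, 190.2 and 197.5 under sh43 and 125.7, 134.5 and 135.0 under sh45. The groups were separate, with rises of 0.87 (SE 0.05, adjusted p = 7.6e-14) and 0.34 (SE 0.05, adjusted p = 7.6e-06) and a difference between hairpins of -0.53 (adjusted p = 1.2e-09). AURKA, the kinase of centrosomes and spindle poles, rose from 74.6 ± 3.25 CPM to 122 ± 5.85 under sh43 and 93.6 ± 5.32 under sh45 (0.71 and 0.33, adjusted p = 1.0e-10 and 7.9e-05). PLK4 rose by 0.83 and 0.46 (adjusted p = 1.9e-08 and 0.00027). TTK and BUB1, kinases of the spindle checkpoint, rose by 0.46 and 0.57 under sh43 and by 0.36 and 0.46 under sh45. PLK1 was lower under sh52 than under sh50 (-0.31, adjusted p = 0.0071), with 55.3 ± 3.19 against 68.7 ± 3.45 CPM. AURKA differed between those hairpins by -0.12 (adjusted p = 0.45). TTK was also lower under sh52 than sh50 (-0.50, adjusted p = 0.029), a call lost without sh50 replicate 2 or sh52 replicate 2 or 3 (adjusted p from 0.056 to 0.19).

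The genes of the spindle checkpoint and of the APC were grouped with securin, separase and CDCA3. Of these 8 genes, 8 rose under sh43 and 7 under sh45. The shares of all genes tested that rose were 33.5% and 25.3%. CDC20, the activator that brings substrates to the APC, was at 94.1, 92.5 and 93.5 CPM in the ZHX2 controls, 162.3, 172.9 and 179.0 under sh43 and 125.0, 125.6 and 137.7 under sh45. No group overlapped another, with rises of 0.88 (SE 0.06, adjusted p = 1.9e-13) and 0.47 (SE 0.06, adjusted p = 8.6e-08). In the USP13 experiment CDC20 was at 54.3, 63.3 and 57.8 CPM in controls, 47.7, 54.3 and 48.8 under sh50 and 38.3, 44.3 and 46.8 under sh52. The sh52 libraries all lay below every other library, and the fall was -0.44 (SE 0.09, adjusted p = 0.00094). Under sh50 the difference was -0.22 (adjusted p = 0.065).

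PTTG1, or securin, which holds separase inactive until anaphase, was at 41.8, 44.5 and 49.5 CPM in the ZHX2 controls, 76.1, 83.7 and 86.9 under sh43 and 98.5, 104.5 and 95.6 under sh45. Each group lay clear of the others, and here the larger rise was that under sh45 (1.13, SE 0.07, adjusted p = 2.7e-13, against 0.86 under sh43, adjusted p = 3.2e-11). The difference between hairpins was 0.27 (adjusted p = 0.00074). The near-identical copies PTTG2 and PTTG3P had counts of 0 in all libraries. UBE2C followed the same order, from 103 ± 3.72 CPM to 161 ± 5.51 under sh43 and 183 ± 5.11 under sh45 (0.64 and 0.83, adjusted p = 2.8e-11 and 4.0e-13).

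UBE2C was also among the rises under sh50 that no single library decided. It was at 54.2, 62.6 and 55.2 CPM in the USP13 controls, 69.8, 75.5 and 70.0 under sh50 and 51.3, 50.9 and 57.1 under sh52. The sh50 libraries stood apart above all others (0.32, SE 0.08, adjusted p = 0.0025), and sh52 was lower than sh50 by -0.43 (adjusted p = 0.00037). ESPL1, the protease separase that cuts cohesin, rose by 0.70 under sh43 and 0.51 under sh45. CDCA3, an F-box-like protein that promotes entry to mitosis, rose by 0.44 and 0.55. MAD2L1 and BUB1B, inhibitors of CDC20 in the checkpoint, rose by 0.71 and 0.68 under sh43 and by 0.59 and 0.56 under sh45. BUB3, their partner at kinetochores, fell under sh52 from 110 ± 4.18 to 86.5 ± 4.14 CPM (-0.35, adjusted p = 0.00035) and rose little under sh43 (0.16, adjusted p = 0.0093, or 0.057 with upper-quartile factors).

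The chromosomal passenger complex corrects faulty attachments of chromosomes and later acts in cytokinesis. All 4 of its genes rose under sh43 and 3 rose under sh45, where 33.5% and 25.3% of all genes tested rose. AURKB, its kinase, was at 28.8, 31.2 and 27.7 CPM in the ZHX2 controls, 64.1, 65.3 and 64.9 under sh43 and 55.2, 61.7 and 57.8 under sh45. All 6 knockdown libraries lay far above the controls. AURKB had the largest rise of the 50 genes under sh43 (1.15, SE 0.07, adjusted p = 7.5e-14) and the second largest under sh45 (0.99, SE 0.07, adjusted p = 4.6e-12). BIRC5, or survivin, rose from 92.1 ± 2.65 to 150 ± 0.737 CPM under sh43 (0.71, adjusted p = 2.6e-11). Its rise to 105 ± 7.60 CPM under sh45 (0.19, adjusted p = 0.0064) was lost without sh45 replicate 3 (adjusted p = 0.064), and the hairpins differed by -0.51 (adjusted p = 1.1e-08). CDCA8, or borealin, rose by 0.73 and 0.38 and INCENP, the scaffold, by 0.25 under sh43, with 0.14 under sh45 (adjusted p = 0.080).

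Of the 6 kinetochore and centromere genes, 5 rose under sh43, 3 under sh45 and 3 under sh50. The shares of all genes tested that rose were 33.5%, 25.3% and 10.2%. NUF2, NDC80 and SPC25, subunits of the complex that binds spindle microtubules, rose under sh43 by 0.72, 0.55 and 0.54. Under sh45 NUF2 rose (0.52, adjusted p = 1.3e-05), whereas NDC80 and SPC25 stood at 0.13 and 0.20 (adjusted p = 0.28 and 0.18). SPC25 was scarce in the USP13 libraries, at 3.27, 3.88 and 2.87 CPM in controls, 5.19, 6.06 and 6.55 under sh50 and 4.03, 4.68 and 4.24 under sh52. Every knockdown library lay above every control, and its rise under sh50 was the largest of the 50 genes (0.82, SE 0.21, adjusted p = 0.0052). Under sh52 the difference was 0.36 (adjusted p = 0.32).

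CENPF, a large protein of the outer kinetochore, was at 187.2, 133.7 and 182.1 CPM in the ZHX2 controls, 244.8, 259.6 and 238.2 under sh43 and 215.4, 223.6 and 220.2 under sh45. Control replicate 2 was the low library, and the rises of 0.56 and 0.39 (adjusted p = 2.6e-07 and 0.00010) were 0.45 and 0.27 without it. Under USP13 knockdown, CENPF and NUF2 rose under sh50 by 0.22 and 0.47 (adjusted p = 0.036 and 0.022). Either call was lost without control replicate 1 or 3 or sh50 replicate 2 or 3 (adjusted p from 0.068 to 0.16). CENPF was lower under sh52 than under sh50 by -0.35 (adjusted p = 0.0028). CENPA, the centromeric histone, rose under sh43 by 0.35, and CENPE rose under sh45 by 0.27, a call lost without ZHX2 control replicate 2 or sh45 replicate 1 (adjusted p = 0.058 and 0.078).

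The 6 mitotic kinesins, motors of the spindle and midzone, divided. Under sh43 KIF2C and KIF4A rose by 0.68 and 0.72 and KIF14 and KIF23 by 0.37 and 0.38, while KIF11, the motor that separates spindle poles, was at 57.7 ± 2.24 CPM in controls, 59.4 ± 2.82 under sh43 and 58.0 ± 3.82 under sh45 (log2 differences of 0.04 and 0.00). KIF20A, a midzone motor of cytokinesis, was at 62.2, 61.5 and 65.8 CPM in controls, 53.5, 62.0 and 57.3 under sh43 and 70.9, 70.6 and 68.5 under sh45. It was called against control under neither hairpin (-0.13 and 0.15, adjusted p = 0.072 and 0.055), yet sh45 lay above sh43 in every library (0.28, adjusted p = 0.00044). Under sh45 KIF2C rose by 0.56 and KIF4A by 0.19, the latter lost without ZHX2 control replicate 1 or sh45 replicate 2 (adjusted p = 0.063 and 0.062). edgeR and DESeq2 called 0 of the 6 kinesins against control under sh50 or sh52. In edgeR, 10.2% of all genes tested rose and 11.3% fell under sh50, and 5.45% and 6.56% under sh52, so 0 of 6 says little. At an unadjusted p under 0.05, 2 kinesins were higher under sh50 and 3 lower under sh52, again with no share of all genes beside them. KIF20A stood at -0.14 and -0.21 (adjusted p = 0.29 and 0.12). KIF14 had the largest difference between the USP13 hairpins of all 50 genes, at 16.3, 17.8 and 17.8 CPM under sh50 and 12.2, 12 and 10.1 under sh52. The sh52 libraries lay below the controls (13.6, 16.4 and 13.8) as well, and the difference was -0.61 (SE 0.12, adjusted p = 0.0021).

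HMMR, a microtubule-binding protein of spindle poles that also serves as a hyaluronan receptor, was called lower under sh43 and higher under sh45. It was at 50.4, 49.3 and 54.6 CPM in the ZHX2 controls, 36.9, 34.6 and 31.6 under sh43 and 58.5, 63.6 and 58.5 under sh45. The sh43 libraries all lay below the controls and the sh45 libraries all above them. HMMR fell under sh43 (-0.58, SE 0.07, adjusted p = 1.0e-07), the only one of the 50 to do so, and rose under sh45 (0.23, SE 0.07, adjusted p = 0.0082), with 0.80 between the hairpins (SE 0.07, adjusted p = 2.3e-10). The rise under sh45 was lost without sh45 replicate 2 (adjusted p = 0.053). With the USP13 hairpins, HMMR was at 37.2, 43.2 and 34.0 CPM in controls, 28.0, 32.5 and 32.2 under sh50 and 25.2, 23.3 and 27.2 under sh52. The 3 groups did not overlap, with falls of -0.30 under sh50 (SE 0.10, adjusted p = 0.029) and -0.60 under sh52 (SE 0.10, adjusted p = 0.00020). HMMR under sh52 differed from sh50 by -0.30 (adjusted p = 0.064). The sh50 call was lost without control replicate 1 or 2 or sh50 replicate 1 (adjusted p from 0.057 to 0.24). HMMR is 1 of 17 of the 50 genes with exons that overlap a gene on the opposite strand (HMMR-AS1). The library kit does not mark strand, so reads of the pair within the overlap cannot be told apart. The same limit holds for ANLN, CCNA2, CDC25C, CDCA3, FOXM1, KIF20A, KIF23, KIF2C, KIF4A, MAD2L1, NCAPG, NUF2, PLK1, PRC1, RACGAP1 and SMC4.

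**Figure D3:**
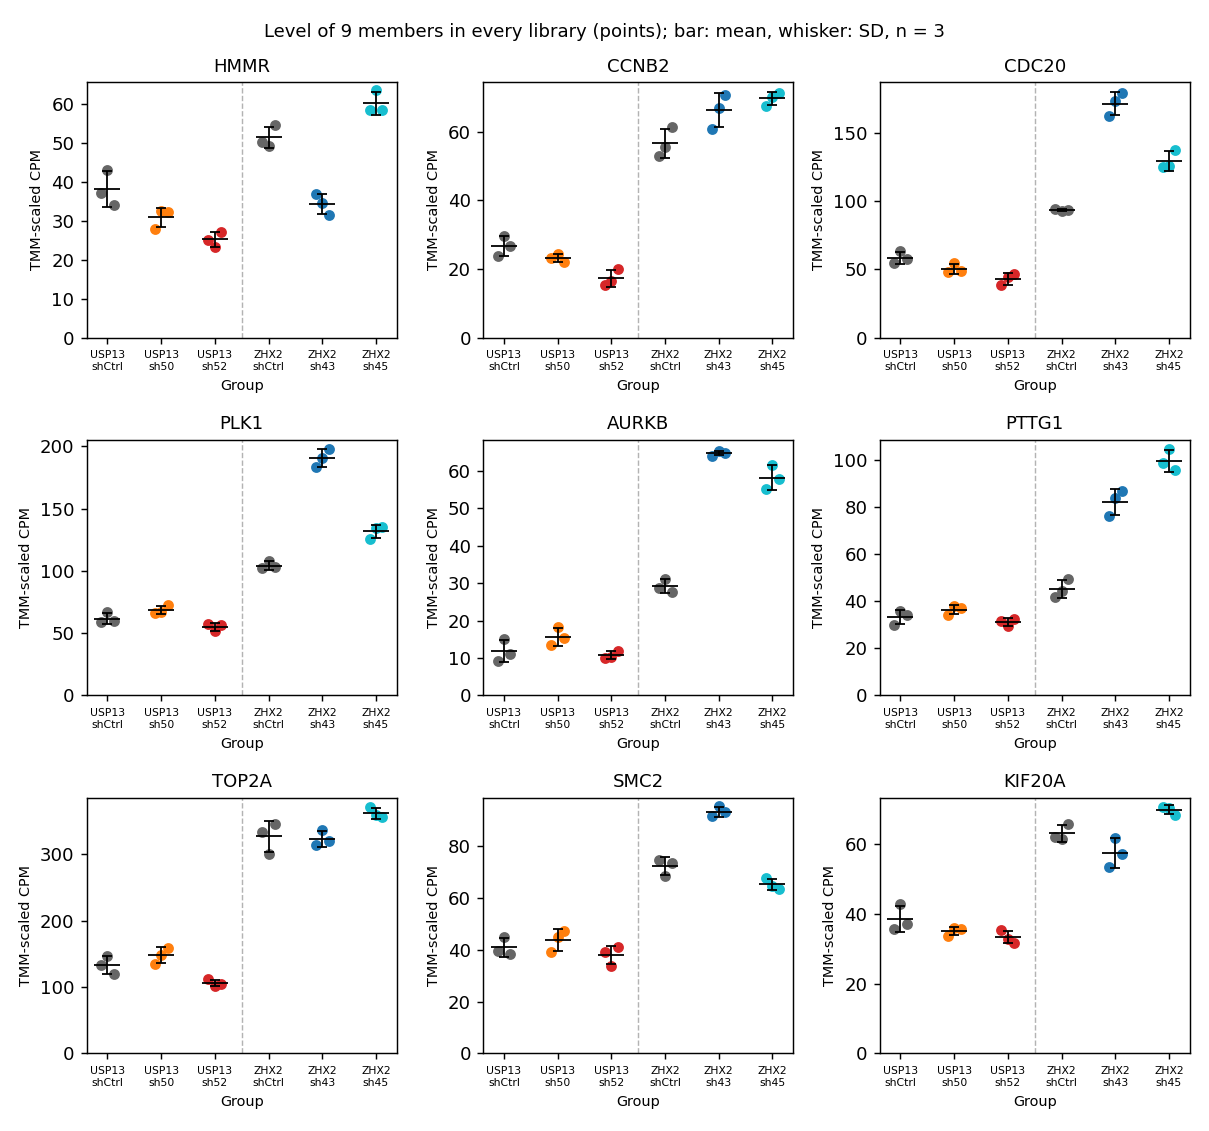
TMM-scaled CPM (vertical axis, from 0) of 9 of the genes in every library (points), with the mean and SD (n = 3), by group. HMMR stood at 34.4 ± 2.65 CPM under sh43 and at 60.2 ± 2.94 under sh45, below and above the controls, whereas AURKB, PTTG1, CDC20 and PLK1 stood above the controls under both hairpins.

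Among the other spindle proteins, TPX2, which activates AURKA at the spindle, rose under sh43 from 176 ± 7.32 to 265 ± 5.14 CPM (0.59, adjusted p = 2.0e-11) and stood at 186 ± 3.77 CPM under sh45 (0.08, adjusted p = 0.18). The hairpins differed by -0.51 (adjusted p = 3.4e-10). PRC1, a crosslinker of midzone microtubules, rose under sh43 and sh45 (0.25 and 0.37, adjusted p = 6.9e-05 and 3.5e-07) and under sh50 (0.31, adjusted p = 0.0028). NUSAP1, which binds spindle microtubules near chromosomes, was at 59.1, 67.5 and 51.7 CPM in the USP13 controls, 74.0, 73.1 and 78.9 under sh50 and 68.4, 54.3 and 60.5 under sh52. It rose under sh50 (0.34, adjusted p = 0.0060), with all 3 libraries above the controls. In the ZHX2 experiment its log2 differences were 0.05 and 0.00. DLGAP5, a spindle assembly factor, rose under sh43 by 0.45.

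The 3 cytokinesis genes all rose under sh43, where 33.5% of all genes tested rose. ANLN, which organises the cleavage furrow, went from 156 ± 7.61 to 224 ± 2.69 CPM (0.52, adjusted p = 3.4e-09) and stood at 160 ± 12.6 CPM under sh45 (0.03, adjusted p = 0.65), so that the hairpins differed by -0.49 (adjusted p = 1.2e-08). RACGAP1, a subunit of the central spindle complex, rose by 0.57 and 0.24 (adjusted p = 2.3e-09 and 0.0010) and ECT2, the RhoA activator, by 0.30 and 0.15. The ECT2 call under sh45 was lost without ZHX2 control replicate 1 or sh45 replicate 1 or 2 (adjusted p from 0.069 to 0.17). RACGAP1 was at 31.9, 32.0 and 31.5 CPM in the USP13 controls, 32.7, 33.0 and 35.0 under sh50 and 22.1, 26.8 and 26.4 under sh52. The sh52 libraries were the low ones (-0.34 against control, adjusted p = 0.016, and -0.42 against sh50, adjusted p = 0.0037), and the call against control was lost without control replicate 1 or 2 or sh52 replicate 1 (adjusted p from 0.053 to 0.083). ANLN also fell under sh52 (-0.25, adjusted p = 0.047), with adjusted p from 0.062 to 0.34 without control replicate 1 or 2, sh50 replicate 2 or sh52 replicate 2 or 3. The same ANLN call was lost with DESeq2, upper-quartile factors, the replicate block and effective lengths (adjusted p from 0.056 to 0.062).

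Of the 6 genes of chromosome structure, 3 rose under sh43, 4 rose and 1 fell under sh45, and 3 rose under sh50. Of all genes tested, 33.5%, 25.3% and 10.2% rose in that order, and 27.3% fell under sh45. TOP2A, the topoisomerase that untangles sister chromatids, was at 334.0, 300.6 and 345.3 CPM in the ZHX2 controls, 313.1, 336.1 and 319.3 under sh43 and 370.7, 359.0 and 355.2 under sh45. The sh43 libraries lay within the range of the controls (-0.02, adjusted p = 0.78). The sh45 libraries lay above it (0.15, adjusted p = 0.013, or 0.055 without sh45 replicate 1), and sh45 exceeded sh43 by 0.16 (adjusted p = 0.0045). Across the USP13 libraries TOP2A was at 132.7, 146.8 and 120.2 CPM in controls, 135.2, 148.5 and 159.1 under sh50 and 111.6, 101.7 and 105.1 under sh52. The sh52 libraries lay below all others, by -0.33 against control (adjusted p = 0.0026) and -0.48 against sh50 (adjusted p = 5.6e-05).

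SMC2, the ATPase common to both condensins, was at 74.7, 68.3 and 73.6 CPM in the ZHX2 controls, 91.6, 95.4 and 93.0 under sh43 and 67.5, 64.6 and 63.6 under sh45. It rose under sh43 (0.37, adjusted p = 4.3e-06), fell under sh45 (-0.15, adjusted p = 0.046), and differed between the hairpins by -0.52 (SE 0.06, adjusted p = 2.4e-08). The fall under sh45 was called only without control replicate 2 or sh45 replicate 1 among the 9 fits that left out a library. Its partner SMC4 rose under sh45 (0.19, adjusted p = 0.0071) and stood at 0.09 under sh43 (adjusted p = 0.15). The condensin I subunits went different ways: NCAPG rose under sh43 (0.24) and stood at 0.00 under sh45, whereas NCAPH rose under sh45 (0.30, adjusted p = 0.0025) and stood at 0.14 under sh43 (adjusted p = 0.12). NCAPH was lower under sh52 than under sh50 (-0.51, adjusted p = 0.0093).

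MKI67, the proliferation marker that coats mitotic chromosomes, was at 194.4, 152.5 and 214.8 CPM in the ZHX2 controls, 223.5, 238.9 and 208.5 under sh43 and 240.5, 248.7 and 242.4 under sh45. Control replicate 2 was again the low library. The rise under sh43 was 0.26 (adjusted p = 0.0039), or 0.15 without that library (adjusted p = 0.0086), and that under sh45 was 0.38 (adjusted p = 0.00012), or 0.27 without it. In the USP13 experiment MKI67 was at 114 ± 9.67 CPM in controls, 133 ± 11.4 under sh50 and 103 ± 4.02 under sh52, with a difference between hairpins of -0.37 (adjusted p = 0.00081). MKI67 and SMC4 rose under sh50 (0.22 and 0.26, adjusted p = 0.021 and 0.0075). The SMC4 call was lost without control replicate 3 (adjusted p = 0.062), and the MKI67 call without control replicate 1 or 3 or sh50 replicate 2 or 3 (adjusted p from 0.071 to 0.13). NCAPH rose under sh50 at the edge of the threshold (0.34), with adjusted p from 0.078 to 0.21 without control replicate 1 or 3 or any sh50 replicate, and from 0.051 to 0.069 with DESeq2, no filter, the replicate block or effective lengths.

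Between the ZHX2 hairpins, 25 of the 50 genes were lower and 8 higher under sh45 than under sh43, where 66.8% of all genes tested were called (32.7% lower and 34.2% higher), with medians of -0.13 and 0.02. With upper-quartile factors the split was 17 lower and 13 higher, and the median of the 50 was -0.06. Those factors moved all genes too, to 3766 lower and 5264 higher of the 13604 tested, with a median of 0.093. The genes lowest under sh45 relative to sh43 were FOXM1, PLK1, KIF4A (-0.53, adjusted p = 4.3e-08), SMC2, TPX2 and BIRC5, between -0.54 and -0.51. Those highest were HMMR (0.80), CDC25C (0.48, adjusted p = 0.0017), KIF20A (0.28), PTTG1 (0.27), CDK1 (0.25) and UBE2C (0.19, adjusted p = 0.0021). ZHX2 itself was higher under sh45 than under sh43 (84.2 ± 5.87 against 40.2 ± 2.74 CPM). Each of these 12 differences was called in every fit that left out a library and with upper-quartile factors.

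Between the USP13 hairpins USP13 itself did not pass the test (16.9 ± 1.81 against 18.1 ± 2.03 CPM, log2 difference -0.11, SE 0.11, adjusted p = 0.61). For 37 of the 50 genes all 3 sh52 libraries lay below all 3 sh50 libraries, and for none did they all lie above, where 13.1% of all genes tested lay wholly below, 13.9% wholly above, and 10.2% were called in either direction. Besides KIF14, CDK1, NCAPH, TOP2A, UBE2C, RACGAP1, MKI67, CENPF and PLK1, KIF23, a motor of the central spindle, kept its difference without each library in turn (-0.46, adjusted p = 0.0062). AURKB and NUF2, at -0.54 and -0.51 (adjusted p = 0.029 and 0.030), did not: AURKB lost its call without sh50 replicate 2 or sh52 replicate 1 or 2 (adjusted p from 0.063 to 0.19) and NUF2 without sh50 or sh52 replicate 2 or 3 (adjusted p from 0.075 to 0.16).

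**Figure D4:**
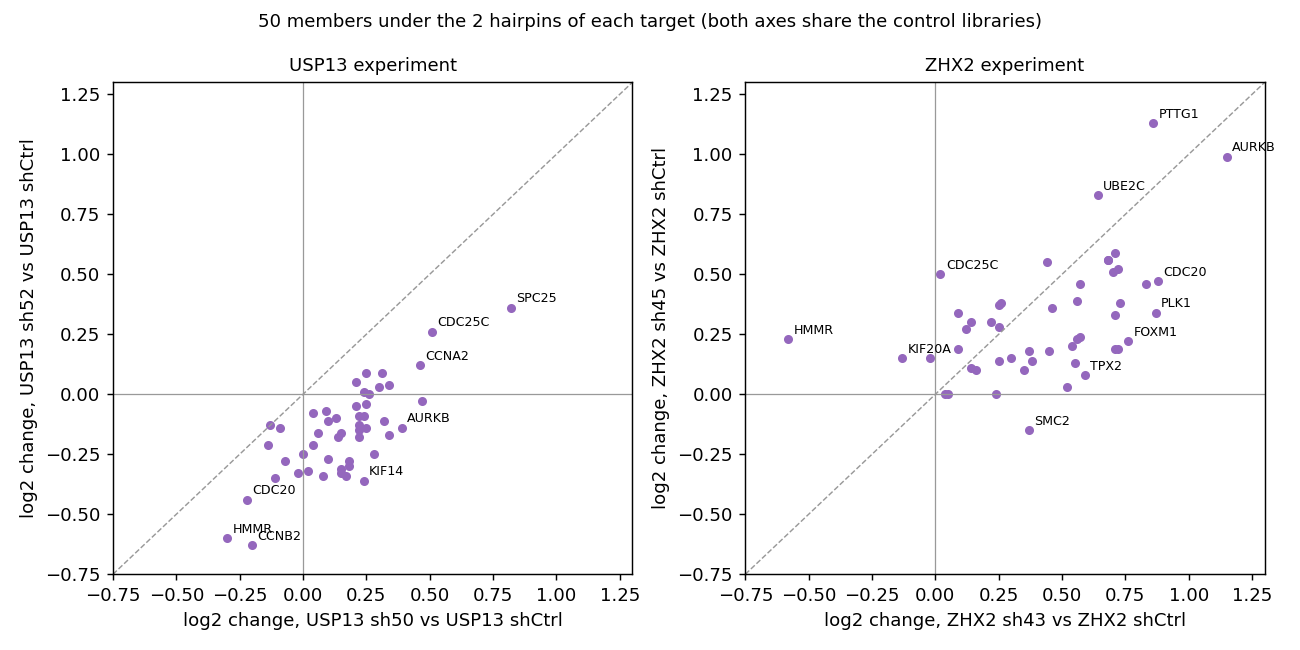
Log2 change of the 50 genes (points) under the hairpins of each target, sh50 (horizontal axis) and sh52 (vertical axis) on the left and sh43 (horizontal) and sh45 (vertical) on the right, each against the same 3 controls, with the line of equal change dashed. On the left nearly all points lie below the line, with a negative log2 difference between sh52 and sh50 in 49 of 50 genes, and on the right HMMR, SMC2, KIF20A and TOP2A lie in quadrants of opposite sign, of which HMMR and SMC2 were called on both axes.

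Among 88 further genes of the G2/M programme, 65 rose and 5 fell under sh43, and 50 rose and 7 fell under sh45 (medians 0.44 and 0.27), where 33.5% and 25.3% of all genes tested rose and 35.2% and 27.3% fell. CDCA5, or sororin, which protects cohesion, rose by 1.40 and KIF18B, a depolymerising kinesin, by 1.10 under sh43, while UBE2S, a ubiquitin-conjugating enzyme of the APC, and HJURP, the chaperone of CENPA, rose by 0.97 and 0.88 under sh45. The cohesin subunit STAG1 fell under both hairpins (-0.70 and -0.55). SMC1A, a cohesin ATPase, fell by -0.45 under sh43 and ZW10, a checkpoint protein of kinetochores, by -0.62 under sh45. Under sh50, 17 of the 88 rose and 1 fell, and under sh52, 5 rose and 9 fell (medians 0.15 and -0.05), where 10.2% and 5.45% of all genes rose and 11.3% and 6.56% fell. PKMYT1, a kinase that inhibits CDK1, and DSN1, a kinetochore subunit, rose by 0.65 and 0.55 under sh50, where PTTG1IP, a binding partner of securin, fell by -0.30. SKA3 and KNTC1, both of kinetochores, rose by 0.53 and 0.45 under sh52, where BORA, an activator of AURKA, and LMNB1, a nuclear lamin, fell by -0.55 and -0.39. Between the USP13 hairpins 17 of the 88 were lower under sh52, where 4.74% of all genes were, led by CKS2, a subunit of CDK complexes, and ZWINT, a kinetochore protein (both -0.56). Between the ZHX2 hairpins 42 were lower and 11 higher under sh45, where 32.7% of all genes were lower and 34.2% higher. KNTC1 and the kinetochore subunit SPC24 were the highest there (0.68 and 0.53), and ZW10 and the phosphatase CDC25A the lowest (-1.08 and -1.0).

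The DNA replication genes, which belong to the preceding phases of the cycle, were read beside them. Of 26, 16 rose under sh50 (median 0.37), 3 rose and 1 fell under sh52 (0.11), 19 rose and 2 fell under sh43 (0.47), and 6 rose and 6 fell under sh45 (0.02). The shares of all genes that rose were 10.2%, 5.45%, 33.5% and 25.3% in that order, and those that fell 11.3%, 6.56%, 35.2% and 27.3%, and the counts under sh45 were near that background. Under sh45 the replication genes had a median near that of all genes tested (-0.01), while the 50 mitotic genes had one of 0.26. Under sh52 the medians of the lists were 0.11 and -0.15.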

How the data were processed

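RNA was purified on RNeasy columns with DNase treatment, and unstranded TruSeq v2 libraries were sequenced as paired ends, per the labels' protocols. Each of the deposited files holds the Salmon output for 1 library, with estimated counts (expected counts) and TPM by transcript, per the file headers. The deposited estimated counts are not scaled for depth. The TPM values, as the authors deposited them, served for levels between genes and for the comparison of the USP13 with the ZHX2 controls. They also served as weights for the effective lengths of genes. Tools listed in the submitters' processing notes are cutadapt (1.12), STAR (2.5.2b), Salmon (0.11.3) and DESeq2 (1.14.1), with build hg19.

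Estimated counts were rounded and summed to genes. Each file lists 60422 transcripts, of which 59301 were named by RefSeq, 684 by GENCODE v29, and 437 by neither (0.0854 to 0.1204% of counts), which were left out. Replicate pairs differed by a chi-square of 2.333 to 6.68 per degree of freedom, and none was identical.

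The 9 libraries of an experiment were fitted together in R 4.3.3 with edgeR 4.0.16 (filterByExpr, TMM, quasi-likelihood F-test) with Benjamini-Hochberg adjustment over all genes tested. In simulated counts for sh50 against control, 87% of genes changed 1.5-fold and 99% of those changed 2-fold were called (13573 genes tested, 13 unchanged genes called). Only 100 genes were changed at each fold, none of them scarce, whereas 21.5% of all genes were called in the data. Smaller changes, such as the median log2 change of 0.18 for the 50 genes under sh50, were not simulated. Alternatives were RLE and upper-quartile factors, DESeq2 1.42.0, no filter on low counts, a replicate block, effective lengths as offsets, and leaving out each library. Genes named were the targets, up to 6 members with the largest called change in each direction per comparison, 11 members in every comparison, and 2 further G2/M genes in each direction. Other members are named to account for all of them, after their values were seen. Promoter windows come from RefSeq (GRCh38.p14). The members and gene lists were chosen with earlier results of these data known.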

Additional observations from a re-analysis of the deposited data

Results flagged for a closer look

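Under the 2 hairpins against ZHX2, HMMR and SMC2 were called in opposite directions against the shared controls, and in both the difference between the hairpins passed the test. The sh45 calls against control were less firm. The HMMR rise was lost without sh45 replicate 2 (adjusted p = 0.053). The SMC2 fall was lost with RLE or upper-quartile factors, DESeq2, no filter or the replicate block (adjusted p from 0.055 to 0.11), and without most single libraries. HMMR was higher under sh45 than under sh43 by 0.80 on the log2 scale, with 60.2 ± 2.94 against 34.4 ± 2.65 CPM. SMC2 was lower under sh45 than under sh43, with a log2 difference of -0.52 and 65.3 ± 2.01 against 93.4 ± 1.92 CPM. Over the alternatives the HMMR difference ran from 0.75 to 0.88 and that of SMC2 from -0.54 to -0.44.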

How the results depend on the processing

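Of 76 changes of members chosen by the naming rule, 59 kept their call in every alternative, 17 lost it in at least 1, and none changed sign. Of those 17, 4 were lost other than by leaving out a library (CDC25C and NCAPH under sh50, SMC2 under sh45, CENPF between the ZHX2 hairpins), and the cause was not tested. That rule takes the largest called changes and 11 fixed members, and other calls were also lost in such alternatives. These include ANLN and ZHX2 under sh52, in 4 each, and ANLN, CDC25B and KIF4A between the USP13 hairpins. BUB3 and CDC25B under sh43 were lost with upper-quartile factors. Between the ZHX2 hairpins, AURKB, CENPA, ECT2, ESPL1, KIF14, NUF2 and SPC25 were lost with upper-quartile factors, and PRC1 with no filter. Leaving out each library in turn gave 5 to 16 members higher and 0 to 2 lower under sh50, 0 to 0 higher and 5 to 11 lower under sh52, and 0 to 0 higher and 13 to 27 lower under sh52 against sh50. It gave 39 to 41 higher and 1 to 2 lower under sh43, 31 to 37 higher and 0 to 1 lower under sh45, and 7 to 9 higher and 19 to 26 lower under sh45 against sh43. These fits have fewer samples. The count of members lower under sh45 went from 1 to 0 with RLE factors, upper-quartile factors, DESeq2, no filter on low counts or the replicate block. Upper-quartile factors gave 2 members lower under sh43, and 13 higher under sh45 than under sh43. With those factors 5146 of the 13604 genes tested were lower under sh43, and 5264 higher under sh45 than under sh43. Samples with the same replicate number did not deviate together (correlations from -0.103 to 0.055). Such correlations cannot show whether these samples were handled together, and the main fit used no block. With the replicate number as a block, 11 members rose and 1 fell under sh50, 7 fell under sh52, 40 rose under sh43 and 34 under sh45. Members at a few CPM, such as SPC25, limit the precision in the USP13 libraries.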
